A study of Mus musculus with 6 samples.

Results

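FoxO factors are forkhead transcription factors that switch muscle cells from growth towards breakdown of their own protein and organelles, and Fbxo32, Trim63, Trim55 and Bnip3 act in that breakdown. The members are the 7 genes Foxo1, Foxo3, Foxo4, Fbxo32, Trim63, Trim55 and Bnip3, taken by gene name from a table of 55401 genes, and all 7 were found once each. They were measured by RNA-seq of poly(A) RNA in whole hearts of C57BL/6 mice, 6 to 8 weeks old. There were 3 control hearts and 3 hearts labelled as induced with angiotensin II (Ang II), a peptide hormone that constricts vessels and loads the heart. The dose, route and duration of Ang II, and what the control mice received, are not given in the sources used here. The series title also names corynoline, and no heart given that compound was analysed here.

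In growing or fed muscle, insulin and IGF-1 act through PI3-kinase and Akt, and Akt phosphorylates FoxO proteins and keeps them out of the nucleus. When that signal falls, FoxO proteins enter the nucleus and switch on the ubiquitin ligases atrogin-1 (Fbxo32) and MuRF1 (Trim63) and genes of autophagy and mitophagy such as Bnip3. Ubiquitin ligases mark proteins for the proteasome: atrogin-1 is the substrate-binding part of an SCF complex, and MuRF1 is a RING ligase of the sarcomere. In the heart both ligases are known for limiting hypertrophic growth. Because FoxO proteins are controlled largely by phosphorylation, their transcript levels do not report how active they are.

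Foxo3 and Bnip3 transcripts were higher in all 3 Ang II hearts than in all 3 control hearts, by 1.64-fold and 1.28-fold in mean CPM (estimated counts scaled to library size). Trim63 and Trim55 were higher in Ang II replicates 2 and 3, but not in Ang II replicate 1. Mean CPM of Fbxo32, Foxo4 and Foxo1 differed by at most 1.20-fold between the groups. Over all 16759 genes tested by edgeR, 0 of the 7 members passed an adjusted p of 0.05, where 0.0358% of all genes did. At an unadjusted p under 0.05 stood 2 of the 7, Foxo3 and Bnip3, both higher, against 3.57% of all genes. CPM in 2 of the 7 did not overlap between the groups, again Foxo3 and Bnip3 and higher in Ang II, against 7.97% of all genes. All 7 log2 changes were above 0, as were those of 50.9% of genes tested, and the signs of Foxo4 and Fbxo32 changed with the processing.

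Estimated counts summed to 51202916 to 63564869 per library, and the members held 396 to 7405 each. Ang II replicate 1 stood apart: its median absolute log2 difference from the other libraries was 0.57, against 0.288 to 0.326 for the other 5, and the edgeR change of each member is therefore given with and without it. Mitochondrially encoded genes took 35.8% to 47.6% of counts. The labels name heart, although their extraction text speaks of adipose RNA. The heart label was checked against 10 cardiomyocyte genes, which summed to 11148 to 18717 FPKM (a level scaled to gene length and library size) in every library. Of 10 skeletal muscle genes, 5 stayed under 0.1 FPKM in every library: the fast fibre genes Myh1, Myh2, Myh4, Actn3 and Pvalb. The other 5 were tested. Ckm had means of 1612 CPM in control and 2030 CPM with Ang II, and Mylpf, Tnni2, Tnnt3 and Atp2a1 group means of 0.20 to 1.36 CPM. These 5 had log2 changes above 0 (median 0.37), beside 50.9% of all genes tested. In whole hearts, fewer cells of a type and less RNA per cell cannot be told apart. The design text counts 3 mice in each group, and p-values measure the spread between these hearts.

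**Figure D1:**
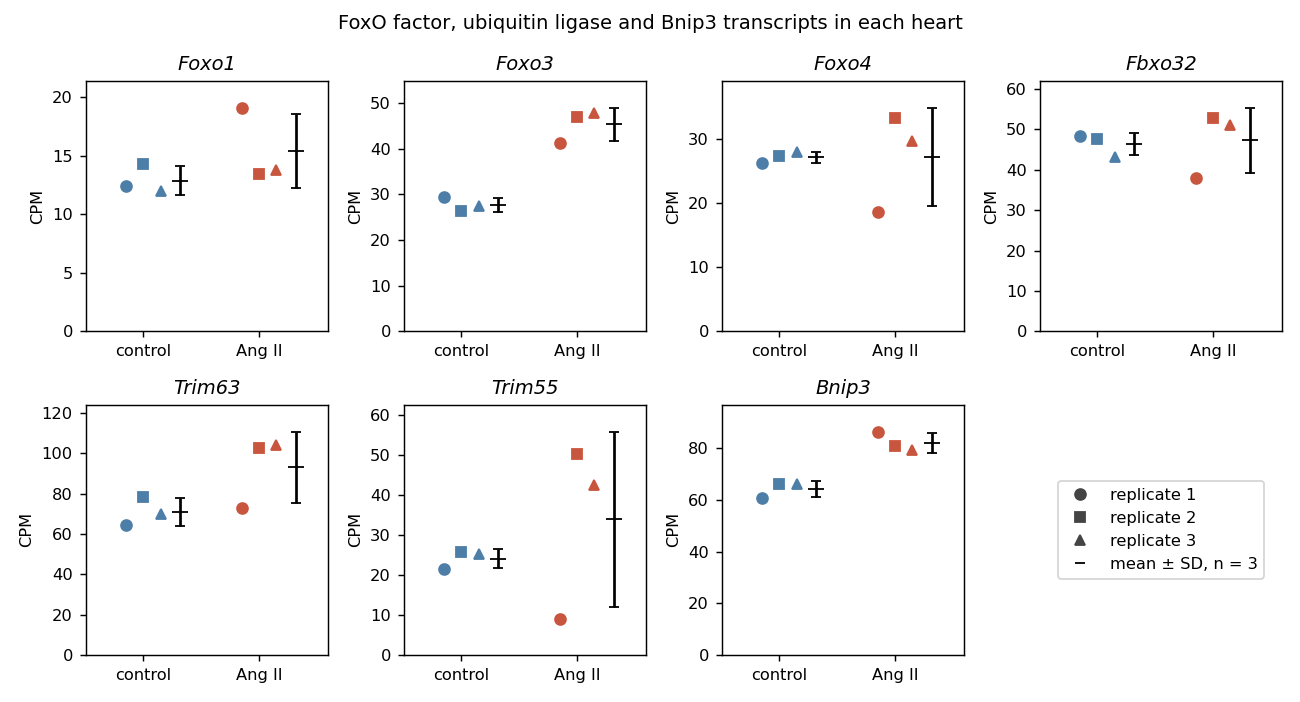
CPM (y axis, linear, from 0) of each of the 7 genes in the 3 control and 3 Ang II hearts; symbols give the replicate number and the black bars the mean and SD of 3. Foxo3 and Bnip3 have all Ang II points above all control points, whereas Trim55 has Ang II points both above (50.3 and 42.7) and below (9.11) the control hearts.

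Foxo3 is one of the main FoxO activators of atrogin-1 and of autophagy genes in muscle. The gene (ENSMUSG00000048756) lies on GRCm38 chromosome 10, 42181841 to 42276752, minus strand. It stood at 29.5, 26.4 and 27.4 CPM in control replicates 1, 2 and 3 and at 41.2, 47.0 and 47.9 CPM in those of Ang II. The lowest Ang II heart, replicate 1, was thus well above the highest control heart. Means were 27.8 ± 1.57 and 45.4 ± 3.62 CPM (SD, n = 3), and the log2 change was 0.71 (SE 0.14, 95% interval 0.38 to 1.03). By p it ranked 75th of 16759 genes (unadjusted p = 0.0014), and its adjusted p was 0.314 in edgeR's quasi-likelihood test. It passed in DESeq2 on the same counts (log2 change 0.72, adjusted p = 0.000214), a test that called 1.65% of all genes. It also passed in limma voom with a weight for each library (0.78, adjusted p = 0.012), which called 2.08% of all genes. Without Ang II replicate 1, edgeR called it too (0.78, adjusted p = 0.0415), with 0.527% of all genes called higher. The weighted fit gave that heart a weight of 0.148, against 0.96 to 2.9 for the others, so it too largely set replicate 1 aside. In FPKM, Foxo3 was at 2.87, 3.67 and 3.43 in control and 4.22, 6.30 and 6.55 with Ang II, again without overlap.

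Foxo4, a family member encoded on the X chromosome, was the most abundant FoxO transcript per length in 5 of the 6 hearts. The gene (ENSMUSG00000042903) lies at 101254528 to 101260873, plus strand. Control hearts held 26.2, 27.3 and 27.9 CPM, a narrow range. Ang II hearts held 18.7, 33.3 and 29.8 CPM, with replicate 1 below and replicates 2 and 3 above every control heart. The log2 change was 0.0052 (SE 0.23, 95% interval -0.54 to 0.55, adjusted p = 0.996 by edgeR) and 0.22 without Ang II replicate 1 (adjusted p = 0.358). It was below 0 when Ang II replicate 2, Ang II replicate 3 or control replicate 1 was left out.

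Foxo1, which in muscle drives the same ligases and in endothelial cells restrains vessel growth, was the least abundant member, at 1.06 to 1.73 FPKM in every library. The gene (ENSMUSG00000044167) lies on chromosome 3, 52268336 to 52353221, plus strand. Its CPM was 12.4, 14.2 and 12.0 in control hearts. In Ang II hearts it was 19.1, 13.4 and 13.8, so that only replicate 1, the heart lowest in Foxo4, lay above the control range. The log2 change of 0.26 (SE 0.19, 95% interval -0.19 to 0.71, adjusted p = 0.769 by edgeR) became 0.08 without that library. Of 10 endothelial markers, 9 had log2 changes below 0 (median -0.36), where 50.9% of all genes tested were above 0. Their sum was 943 to 971 CPM in control hearts against 700 to 871 CPM with Ang II. Their part in the Foxo1 values was not tested.

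Within the family, the share held by Foxo3 differed between the groups. This share was examined after the values had been seen and is a description. Of the summed FPKM of Foxo1, Foxo3, Foxo4 and Foxo6, Foxo3 took 29.7%, 25.9% and 26.4% in control libraries and 41.3%, 35.1% and 37.9% with Ang II. The groups did not overlap, and a share within a library does not depend on how libraries are scaled to each other. Foxo4 took 57.5% to 58.5% in control and 40.6% to 54.1% with Ang II. Foxo1 ranged from 10.1% to 12.2% and from 8.77% to 16.7%. Foxo6, a family member best known from brain, took at most 5.01%. The ratio of Foxo1 to Foxo3, in FPKM, was 0.368, 0.473 and 0.382 in control and 0.405, 0.249 and 0.252 with Ang II, with Ang II replicate 1 inside the control range. Its log2 difference was -0.46 (-0.69 without Ang II replicate 1; exact two-sided permutation p = 0.3, adjusted over 3 ratios 0.45; the smallest p that 3 against 3 allows is 0.1).

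**Figure D2:**
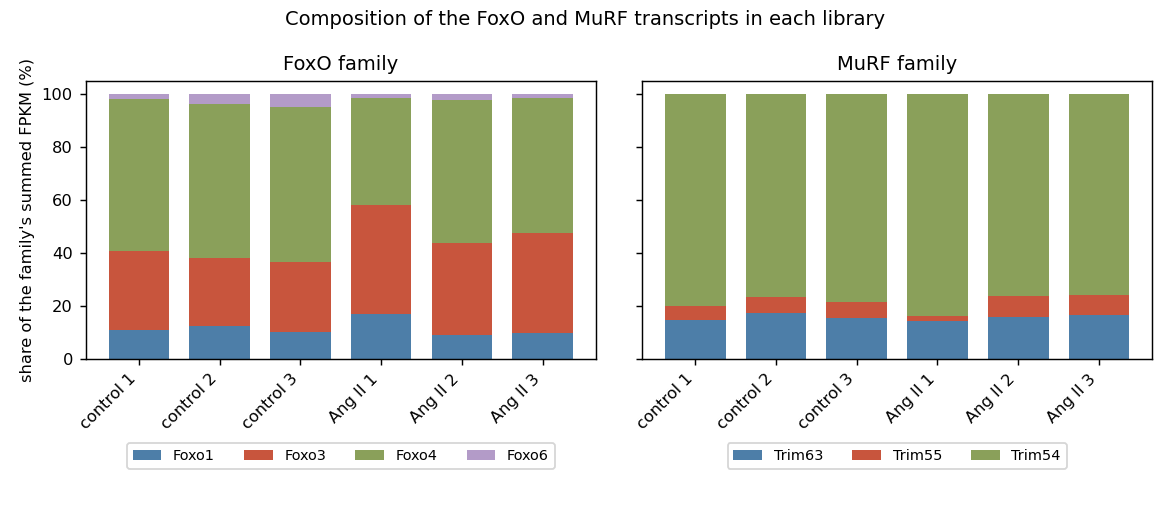
Stacked bars give the percentage of summed FPKM taken by each gene of the FoxO family (left) and of the MuRF family (right) in each of the 6 libraries. Foxo3 takes 25.9% to 29.7% in control and 35.1% to 41.3% with Ang II, and Trim54 takes over 76% of the MuRF family in every library.

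Trim63 encodes MuRF1, the RING ligase that ubiquitinates thick-filament and other sarcomere proteins. The gene (ENSMUSG00000028834) lies on chromosome 4, 134315120 to 134329629, plus strand. Its promoter is shown because it is the only member promoter, of 4 matched, that holds the FoxO core GTAAACA on either strand. The RefSeq promoter table (GRCm38.p6) matched Foxo1, Foxo3, Trim63 and Bnip3 of the 7 members. The 250 bases before the Trim63 start, chr4:134314870-134315119 on the plus strand, are given below. Capitals mark 2 adjacent matches: TGTTCT, the half-site of the glucocorticoid receptor, which begins 200 bases before the start, and TGTTTAC, the FoxO core read on the other strand, which begins 194 bases before it.
Trim63 promoter: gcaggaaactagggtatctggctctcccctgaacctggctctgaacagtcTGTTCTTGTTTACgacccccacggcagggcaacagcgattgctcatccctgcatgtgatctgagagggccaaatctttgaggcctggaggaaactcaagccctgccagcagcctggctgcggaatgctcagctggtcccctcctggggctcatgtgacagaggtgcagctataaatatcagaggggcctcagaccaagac

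The FoxO core was present in 3.65% and the half-site in 19.0% of 32851 RefSeq promoters, each of 300 bases from 250 before the start to 50 after it. The full glucocorticoid palindrome, AGAACA and TGTTCT separated by 3 bases, was in 3 of these promoters and in 0 of the 4 member promoters. In the Trim63 promoter, tgaaca stands 3 bases before TGTTCT and differs from AGAACA in its first letter alone. Only exact matches were counted, so the share of promoters with such a near match is not known here. Of 29 FoxO target genes with a promoter in the table, 3 held the FoxO core, beside 1095 of 27025 genes in all. Counted by promoter this was 8.82% of 34, beside 3.65% of all promoters. The 3 were Bcl2l11, which encodes the death-promoting protein Bim, Txnip, which restrains glucose uptake, and Sesn1, a stress-induced inhibitor of mTORC1. The windows around the match, from GRCm38.p6 and each on the plus strand, are chr2:128125801-128125827 for Bcl2l11, chr3:96557826-96557852 for Txnip and chr10:41810586-41810612 for Sesn1. They are set beside that of Trim63, with the core or its reverse complement in capitals.
Trim63: agtctgttctTGTTTACgacccccacg
Bcl2l11: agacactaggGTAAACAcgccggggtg
Txnip: tggaggcctgGTAAACAagggccaagt
Sesn1: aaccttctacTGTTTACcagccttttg
The matches begin 227 and 121 bases before the start in Bcl2l11 and Txnip, and lie within the transcribed bases of the window in Sesn1. A match of letters is not a bound site, and no binding was measured here. Bcl2l11 stood at 5.32, 3.63 and 4.13 CPM in control and 6.03, 7.69 and 7.70 CPM with Ang II, without overlap (log2 change 0.71, adjusted p = 0.529). Sesn1 stood at 62.8, 53.3 and 54.9 CPM in control and 48.4, 99.4 and 93.6 CPM with Ang II, and Txnip gave a log2 change of 0.25 (SE 0.21). These 3 genes were chosen for their promoter match. Only in Bcl2l11 did all Ang II hearts exceed all control hearts, where 7.97% of all genes did so. Bcl2l11 was low, with mean FPKM of 0.481 in control and 0.846 with Ang II.

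Trim63 was measured at 64.2, 78.2 and 69.8 CPM in control replicates 1, 2 and 3. The Ang II hearts, in the same order, held 72.7, 102 and 104 CPM. Replicates 2 and 3 were above every control heart, and replicate 1 lay inside the control range. Means were 70.8 ± 7.02 and 93.1 ± 17.6 CPM (SD, n = 3), and the log2 change was 0.40 (SE 0.19, 95% interval -0.05 to 0.84, adjusted p = 0.692 by edgeR). Without Ang II replicate 1 it was 0.55 (adjusted p = 0.109), and edgeR did not call it in either fit. Limma voom with a weight for each library gave 0.55 (adjusted p = 0.0508), just outside the threshold.

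Fbxo32 encodes atrogin-1, the F-box protein of the other classic atrophy ligase. The gene (ENSMUSG00000022358) lies on chromosome 15, 58175879 to 58214932, minus strand, and its 5′ end overlaps the antisense gene Gm15943, which held 69 to 253 counts. Control hearts held 48.3, 47.6 and 43.2 CPM of Fbxo32. Ang II hearts held 38.0, 52.7 and 51.1 CPM, with replicate 1 the lowest of all 6 hearts and replicates 2 and 3 the highest. The log2 change was 0.027 (SE 0.17, 95% interval -0.38 to 0.43, adjusted p = 0.972 by edgeR), and 0.16 without Ang II replicate 1 (adjusted p = 0.471). It was below 0 when Ang II replicate 2, Ang II replicate 3 or control replicate 3 was left out.

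The ratio of Fbxo32 to Trim63 in FPKM was 0.307, 0.248 and 0.252 in control libraries and 0.213, 0.210 and 0.200 with Ang II. Every Ang II library, replicate 1 included, was below every control library. The log2 ratio differed by -0.37 (-1.90 ± 0.17 in control and -2.27 ± 0.05 in Ang II, SD, n = 3). The exact two-sided permutation p was 0.1, the smallest possible, and 0.3 adjusted over 3 ratios. Without Ang II replicate 1 the difference was -0.39.

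Trim55 encodes MuRF2, a relative of MuRF1 that binds titin and microtubules and carries signals from the sarcomere to the nucleus. The gene (ENSMUSG00000060913) lies on chromosome 3, 19644474 to 19692421, plus strand. It was at 21.5, 25.7 and 25.2 CPM in control hearts. With Ang II it was at 9.11 CPM (396 counts) in replicate 1, and at 50.3 and 42.7 CPM in the others. Replicate 1 was thus the lowest and replicates 2 and 3 the highest of the 6 hearts. The log2 change was 0.50 with a wide error (SE 0.55, 95% interval -0.82 to 1.82, adjusted p = 0.845 by edgeR). Without Ang II replicate 1 it was 0.95, and edgeR called it (adjusted p = 0.0489), just inside the threshold. It was 0.11 without replicate 2 of Ang II and 0.30 without replicate 3. Its gap of -2.34 on the log2 scale between Ang II replicate 1 and the mean of replicates 2 and 3 was matched or exceeded by 5.75% of all genes tested. The other 6 members had gaps from -0.75 to 0.49. The ratio of Trim63 to Trim55 in FPKM followed, at 2.80, 2.85 and 2.60 in control and 7.48, 1.91 and 2.28 with Ang II (exact two-sided permutation p = 1). An intronic transcript on the same strand, BC002189, held 8 to 92 counts.

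The third MuRF gene, Trim54 (MuRF3), is no member and is given because it held most of the family's transcripts. In each library it took 76.1% to 84.1% of the summed FPKM of the 3 MuRF genes. Trim54 stood at 178, 177 and 179 CPM in control and 220, 253 and 240 CPM with Ang II. Control hearts were nearly identical and all Ang II hearts were higher (log2 change 0.42, SE 0.14, adjusted p = 0.557 by edgeR, adjusted p = 0.0397 by DESeq2), and the log2 change was 0.47 without Ang II replicate 1.

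Bnip3 encodes a protein of the outer mitochondrial membrane that recruits autophagosomes to mitochondria and is switched on by FoxO3 and by hypoxia. The gene (ENSMUSG00000078566) lies on chromosome 7, 138890836 to 138909519, minus strand. It was the most abundant member per length in control hearts. Control replicates held 60.7, 66.2 and 66.0 CPM, and Ang II replicates 86.4, 80.8 and 79.1 CPM. Ang II replicate 1 was here the highest heart, not the lowest. Means were 64.3 ± 3.10 and 82.1 ± 3.82 CPM (SD, n = 3), with a log2 change of 0.35 (SE 0.13, 95% interval 0.05 to 0.66, unadjusted p = 0.0301, adjusted p = 0.599 by edgeR). Without Ang II replicate 1 the change was 0.32 (adjusted p = 0.179). An antisense gene and a pseudogene within its span, Gm45507 and Gm18258, held 0 to 4 counts.

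**Figure D3:**
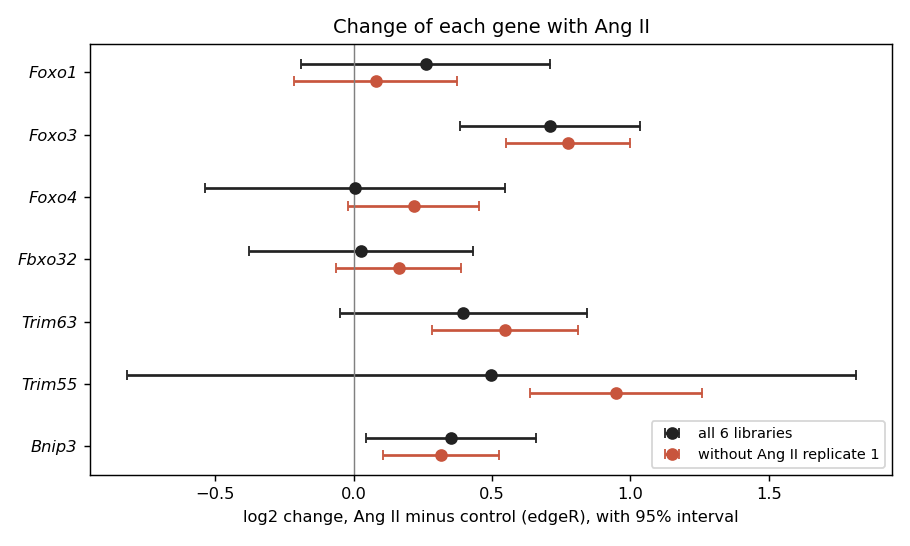
Points are edgeR log2 changes (Ang II minus control, x axis) with 95% intervals, in black for all 6 libraries and in red without Ang II replicate 1. The interval of Foxo3 lies above 0 in both fits (from 0.38 with all 6 libraries), and that of Trim55 narrows from -0.82 to 1.82 to a range above 0 without that library.

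Across the 7 genes, Ang II replicates 2 and 3 were close, with differences of at most 0.24 on the log2 scale. Set against the mean of the control hearts, replicate 1 was lower by 1.40 on the log2 scale for Trim55, 0.54 for Foxo4 and 0.29 for Fbxo32, whereas replicates 2 and 3 were higher for all 3. Replicate 1 was higher for Foxo1 (0.57), Foxo3 (0.57) and Bnip3 (0.43), and near the control mean for Trim63 (0.04). Without it, edgeR called 2 of the 7 members, Foxo3 and Trim55, both higher, where it called 0.527% of all genes higher.

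**Figure D4:**
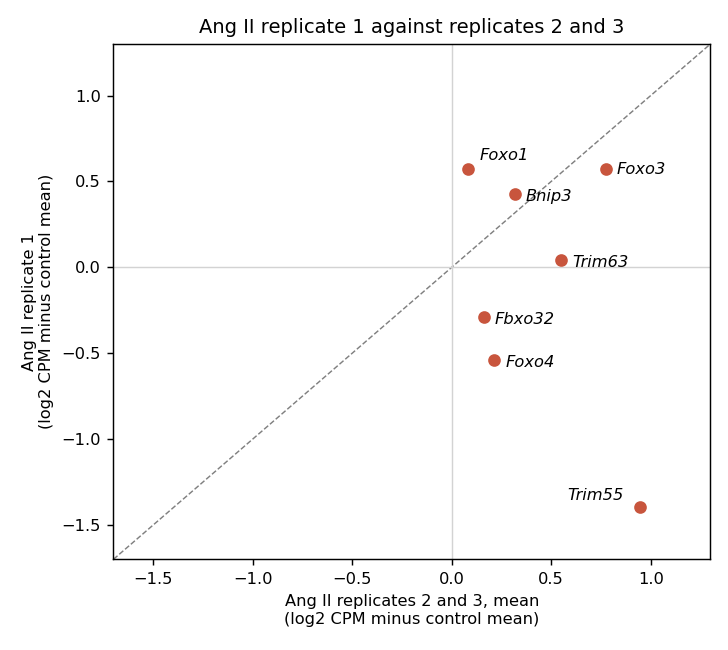
Each point is 1 gene: the log2 difference from the control mean in Ang II replicate 1 (y axis) against the mean of that difference in Ang II replicates 2 and 3 (x axis); the dashed line marks equal values. Foxo3 and Bnip3 lie near the line at values above 0, and Trim55 lies far below it, with a gap of -2.34.

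Per length, the order of mean levels was the same in both groups: Bnip3, Trim63, Trim55, Foxo4, Fbxo32, Foxo3 and Foxo1. In control libraries the means were 26.0 ± 5.70, 23.0 ± 6.19, 8.37 ± 2.18, 7.13 ± 1.42, 6.06 ± 1.06, 3.32 ± 0.413 and 1.37 ± 0.343 FPKM (SD, n = 3). Neighbours in that order overlapped in range for Bnip3 and Trim63, for Trim55 and Foxo4, and for Foxo4 and Fbxo32, although within each control library the first of each pair was higher. Ang II libraries gave 34.0 ± 3.83, 31.4 ± 10.1, 12.8 ± 8.90, 7.56 ± 2.99, 6.49 ± 1.97, 5.69 ± 1.28 and 1.64 ± 0.0673 FPKM. There the ranges of Fbxo32 and Foxo3 overlapped as well, and Trim63 was above Bnip3 in 2 of 3 libraries. Bnip3 and Trim63 stood at the 95.3rd and 94.9th percentile of mean FPKM over tested genes, and Foxo1 at the 53.1st.

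Genes upstream of FoxO showed no common direction. This list holds the receptors, PI3-kinase, Akt, AMP kinase and cofactors of FoxO. Of 29 tested genes, 13 log2 changes were above 0 and 16 below, where 50.9% of all genes tested were above 0. The median was -0.01 (0.10 without Ang II replicate 1), beside 0.0092 for all genes tested. By edgeR 0 passed, 1 higher and 1 lower had an unadjusted p under 0.05, where 3.57% and 3.94% of all genes stood. The lower one was Sgk1, a kinase related to Akt that also phosphorylates FoxO, at 72.8, 74.1 and 76.4 CPM in control and 65.6, 55.8 and 53.0 CPM with Ang II, without overlap. Irs2, an adaptor of the insulin receptor and itself a FoxO target, was at 3.85, 5.66 and 4.71 CPM in control hearts and, with Ang II, at 4.21, 10.8 and 10.2 CPM.

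FoxO target genes had 26 of 37 log2 changes above 0 and 11 below, where 50.9% of all genes tested were above 0. The median was 0.08 (0.26 without Ang II replicate 1). By edgeR 0 passed, and 5 higher and 1 lower had an unadjusted p under 0.05, where 3.57% and 3.94% of all genes did. In CPM, 5 were higher and 1 lower without overlap, where 7.97% and 9.21% of all genes were. The lower gene by both measures was Errfi1, with means of 19.9 CPM in control and 12.5 CPM with Ang II (log2 change -0.67, SE 0.24). The list median per heart, as a log2 difference from the control mean, was -0.09 for replicate 1 of Ang II, 0.37 for replicate 2 and 0.25 for replicate 3. Gabarapl1, a gene of autophagy, was at 49.9, 53.4 and 50.9 CPM in control and 86.3, 120 and 98.0 CPM with Ang II. All Ang II hearts were above all control hearts (log2 change 0.98, SE 0.16, adjusted p = 0.249 by edgeR, adjusted p = 4.02e-05 by DESeq2). Eif4ebp1, a brake on translation, was at 36.1, 29.4 and 36.7 CPM in control and 98.5, 56.4 and 60.9 CPM with Ang II, with replicate 1 the highest. Cdkn1a, the cell cycle inhibitor p21, was at 22.3 ± 0.922 and 33.9 ± 7.94 CPM, with replicate 1 at 24.7 CPM. With replicate 1 of Ang II left out, edgeR called 4 of the 37, all higher, against 0.527% of all genes: Pdk4, Gabarapl1, Cdkn1a and Sesn1 (log2 changes 2.70, 1.08, 0.79 and 0.76). Pdk4, a kinase that turns cells from glucose to fat oxidation, stood at 81.8, 112 and 92.0 CPM in control hearts and at 64.8, 650 and 589 CPM with Ang II. Its replicate 1 was thus below every control heart, and with all 6 libraries its log2 change was 2.19 (SE 0.75, adjusted p = 0.583 by edgeR). DESeq2 with all 6 libraries called 2, Gabarapl1 and Eif4ebp1, where it called 1.65% of all genes.

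Other ubiquitin ligases of muscle, their E2 enzymes and ubiquitin genes had 20 of 33 log2 changes above 0, beside 50.9% of all genes. Their median was 0.05 (0.03 to 0.09 with 1 library left out). By edgeR 0 passed, and 4 higher and 1 lower had an unadjusted p under 0.05, where 3.57% and 3.94% of all genes did. Without overlap, 10 were higher and 1 was lower, where 7.97% and 9.21% of all genes were. The lower gene was Ube2d3, an E2 enzyme that hands ubiquitin to many RING ligases, at 121, 135 and 134 CPM in control and 76.5, 81.9 and 88.9 CPM with Ang II. Its log2 change was -0.66 (SE 0.14, adjusted p = 0.35 by edgeR, 0.00119 by DESeq2), the only one of the list called lower by DESeq2. Fbxo31, an F-box protein, was at 51.1, 48.9 and 53.4 CPM in control and 69.6, 70.2 and 71.0 CPM with Ang II (log2 change 0.46, SE 0.12, adjusted p = 0.487 by edgeR). Here Ang II replicate 1 matched the other Ang II hearts.

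Other inputs to the ligases, through glucocorticoids, myostatin, TWEAK and NF-κB, had 11 of 20 tested log2 changes above 0, beside 50.9% of all genes. Their median was 0.05, and 0.02 to 0.08 with 1 library left out. By edgeR 0 passed, and 2 higher and 0 lower had an unadjusted p under 0.05, where 3.57% and 3.94% of all genes did. Tnfrsf12a, the TWEAK receptor Fn14, stood at 11.8, 10.0 and 11.9 CPM in control and 46.9, 34.5 and 36.3 CPM with Ang II. Every Ang II heart was thus far above the control range (log2 change 1.80, SE 0.18), with an adjusted p of 0.0517 by edgeR, just outside the threshold, and 9.54e-15 by DESeq2. Fkbp5, induced by glucocorticoids, was at 17.6, 17.2 and 16.98 CPM in control and 32.1, 74.1 and 62.5 CPM with Ang II (log2 change 1.70, SE 0.31, adjusted p = 0.276 by edgeR). The glucocorticoid receptor gene Nr3c1 was at 26.6 ± 3.05 and 21.4 ± 5.03 CPM, with overlapping groups. Leaving out replicate 1 of Ang II, edgeR called Fkbp5 and Tnfrsf12a of this list, both higher, against 0.527% of all genes. Mstn, Myog and Dach2 stayed under 0.1 FPKM in every library.

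Known substrates and partners of the ligases had 17 of 21 log2 changes above 0, beside 50.9% of all genes. Their median was 0.21. By edgeR 0 passed, and 3 higher and 0 lower had an unadjusted p under 0.05, where 3.57% and 3.94% of all genes did. The median was 0.09 when replicate 1 of Ang II was left out. Des, which encodes the intermediate filament desmin, was at 1244, 1464 and 1290 CPM in control and 2102, 2133 and 2038 CPM with Ang II, without overlap (log2 change 0.65, SE 0.16, adjusted p = 0.449 by edgeR). Ttn, the giant sarcomere protein titin to which the MuRF proteins bind, was at 588, 705 and 607 CPM in control and 1412, 1778 and 734 CPM with Ang II, with replicate 3 close to the control range. Ppara, whose protein MuRF1 can ubiquitinate and which the series title names, was at 2.83 ± 0.675 and 2.08 ± 1.07 CPM, with overlapping groups.

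Partners of Bnip3 and genes of mitophagy and hypoxia had 17 of 22 log2 changes above 0, beside 50.9% of all genes. Their median was 0.15. The median was 0.06 without Ang II replicate 2, 0.09 without replicate 3 and 0.19 without replicate 1. By edgeR 0 passed, and 1 higher and 0 lower had an unadjusted p under 0.05, where 3.57% and 3.94% of all genes did. The higher gene, Sqstm1, encodes the autophagy receptor p62, which also binds MuRF2, and also stands in the list of substrates. It was at 226, 195 and 231 CPM in control and 272, 319 and 325 CPM with Ang II, without overlap (log2 change 0.49, SE 0.16, adjusted p = 0.542 by edgeR). Phb2, an inner membrane receptor of mitophagy, differed by 0.43 on the log2 scale (SE 0.19) and Egln3, a hypoxia-induced prolyl hydroxylase gene, by -0.47 (SE 0.23), both with overlapping groups. Bnip3l, the closest relative of Bnip3, was at 34.9, 34.7 and 35.2 CPM in control and 41.2, 32.95 and 31.9 CPM with Ang II (log2 change 0.016, 95% interval -0.34 to 0.37).

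**Figure D5:**
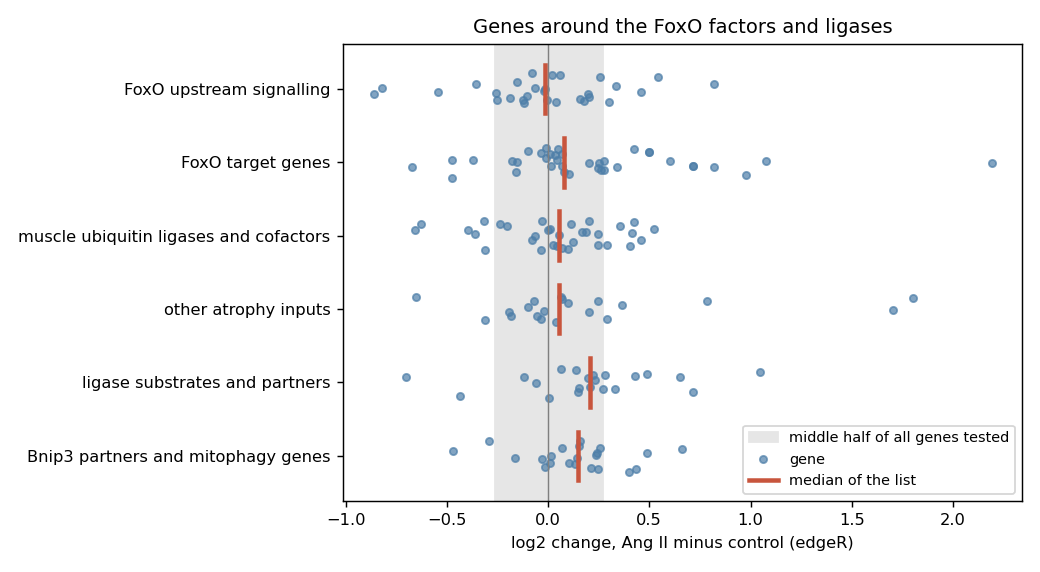
Each blue point is the edgeR log2 change (Ang II minus control, x axis) of 1 gene in 6 lists around the FoxO factors and ligases; red lines are list medians, and the grey band runs from the lower to the upper quartile of all genes tested (-0.26 to 0.27). All 6 medians, from -0.01 to 0.21, lie inside the band, and Pdk4, Tnfrsf12a and Fkbp5 are the points farthest to the right.

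The genes whose profile over the 6 hearts was most like that of each member were found among 6140 tested genes with a mean FPKM of at least 2. Likeness was the root mean square difference of centred log2 CPM. Trim55 was closest to Pik3r1, which encodes the regulatory subunit of PI3-kinase, and to Lrrc58, at 0.139 and 0.149. Pik3r1 stood at 34.9, 35.3 and 35.8 CPM in control and 12.8, 61.4 and 52.5 CPM with Ang II, the same low replicate 1 and high replicates 2 and 3. Foxo3 was closest to the nuclear long noncoding RNA Neat1 (0.0415) and to Nqo1, a quinone reductase of the oxidative stress response (0.0834). Neat1 stood at 983, 937 and 918 CPM in control and 1443, 1687 and 1628 CPM with Ang II. Trim63 was closest to Bves, a membrane protein of striated muscle (0.0238), and Lsmem2 (0.0426). Fbxo32 was closest to Tmem186 and Tmed2, Bnip3 to Yipf7 and Pomgnt1, Foxo4 to Arl6ip5 and Dhrs4, and Foxo1 to the mitochondrial ribosomal protein genes Mrpl43 and Mrps33, at 0.0172 to 0.0423. These names are a description.

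Of the cell type markers edgeR called none, and DESeq2 called 6 of 8 red blood cell and 2 of 10 endothelial genes lower, where it called 1.65% of all genes. Smooth muscle markers had a median log2 change of 0.05, and their sums overlapped, at 558 to 651 CPM in control hearts and 462 to 605 CPM with Ang II. Red blood cell genes had 8 of 8 log2 changes below 0 (median -1.84), where 50.9% of all genes tested were above 0. By edgeR 7 of them had an unadjusted p under 0.05, against 3.94% of all genes lower. They summed to 804 to 2043 CPM in control hearts against 444 to 594 CPM with Ang II. The most abundant were the globin genes Hbb-bs and Hba-a1, near-identical copies of other globin genes, with log2 changes of -1.31 and -1.53. Of 8 adipocyte markers 5 were tested, with a median of -2.29: Fabp4, which capillaries also express, was at 729 and 802 CPM, Cfd at 2.05 and 0.405 CPM, and the others under 0.5 CPM. Macrophage markers summed to 137 to 209 FPKM in control libraries and, with Ang II, to 260 FPKM in replicate 1 and 144 and 167 FPKM in the other two, so that the groups overlapped. In CPM these sums were 274 to 299 in control hearts and 214 to 464 with Ang II. The median log2 change of the macrophage markers was -0.05, and -0.32 without Ang II replicate 1. Fibroblast markers summed to 1570 to 1628 CPM in control and 1320 to 1493 CPM with Ang II, with means of 977 and 885 CPM from Gsn alone. Of these 10 markers, 3 had log2 changes above 0 and 7 below, with a median of -0.18 (-0.05 without Ang II replicate 1). Cardiomyocyte markers, with 10 of 10 log2 changes above 0 and a median of 0.26, summed to 43769 to 50336 CPM in control and 48045 to 57075 CPM with Ang II. Trim63, Trim55 and Fbxo32 are transcribed mainly in striated muscle, and the part of these shifts in the members' values was not tested.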

How the data were processed

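The authors deposited 1 table with FPKM and an estimated count per gene and library; 0.0001 stands for 0 FPKM in it. Per the labels' protocols, poly(A) RNA was sequenced as paired-end libraries. The tools Bowtie 0.12.2, HISAT2 2.0 and StringTie 1.3.0 and the mm8 build appear, per the submitters' processing notes, with no role. GENCODE M21 holds 55141 of the IDs, and 51957 of those (94.2%) have the same GRCm38 start and end, as did 6 of the 7 members (the span of Foxo3 differed), so positions are given as GRCm38. Strandedness is not given in the sources used here, so reads of overlapping antisense genes cannot be told apart.

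The deposited estimated counts are whole numbers and were tested as they stand over all genes with edgeR 4.0.16 in R 4.3.3 (quasi-likelihood, TMM scaling, filterByExpr, two-sided, Benjamini-Hochberg, threshold 0.05). They are estimates, not raw counts. CPM uses TMM-scaled library sizes; SE comes from the log2 change and the test statistic; 95% intervals use the t distribution of the fit. DESeq2 1.42.0 and limma 3.58.1 (log2(FPKM + 0.5) for genes of at least 0.5 FPKM in 3 libraries, and voom with library weights) were alternatives. Other scaling, no filter, no mitochondrially encoded genes, a pseudocount of 0.1, the replicate number as a block and each library left out were also run. Scripts were tested on simulated data. The 7 members and the 14 lists (239 entries, all found) were chosen with earlier results of these data known. Genes named from lists are the 3 with the smallest p among those reaching 1 FPKM on average in either group; for each member the 2 most similar genes are named, predicted genes left out; of cell type lists, the 2 most abundant where the median is beyond ±0.5; others were chosen after their values were seen. 1 gene that the rule names is not reported here. Protein sequences were not used here. Libraries of 1 group differed by 34.1 to 483 in chi-square per degree of freedom, where counting error gives about 1.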

Additional observations from a re-analysis of the deposited data

How the results depend on the processing

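With all 6 libraries edgeR called 6 genes. It called 12 with no filter and 0 with the replicate number as a block (1104 genes at an unadjusted p under 0.05); limma on log2(FPKM + 0.1) called 3, DESeq2 276 and voom with library weights 348; leaving out 1 library gave 0 to 129: 129 without Ang II replicate 1, 2 without replicate 2, and 0 without replicate 3 or any control heart (851 to 1114 genes at an unadjusted p under 0.05). Deviations of same-numbered hearts from their group means correlated at 0.078, 0.11 and -0.037, and 2 of 3 control hearts correlated best with their own number. With 3 hearts a group, these values cannot show whether the replicate numbers pair the hearts.

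Foxo3 passed with DESeq2 (0.72) and library weights (0.78), and without Ang II replicate 1, and ranged from 0.67 to 0.78 with 1 library left out. In the other 11 alternatives, 5 of them with 1 library left out, it had the same sign and did not pass. Trim55 ranged from 0.11 to 0.95 and passed only without Ang II replicate 1. The sign of Foxo4 turned with the block (-0.036), without mitochondrially encoded genes (-0.00049) and with 1 library left out (-0.16 to 0.22); that of Fbxo32 with 1 library left out (-0.059 to 0.16). Foxo1, Trim63 and Bnip3 kept sign and call in all 14 alternatives. The Fbxo32 to Trim63 and Foxo1 to Foxo3 ratios kept their direction in all 8; Trim63 to Trim55 ranged from -0.40 to 0.59 with 1 library left out.

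By edgeR with all 6 libraries and the filter, no FoxO or ligase list had a called gene. Library weights called 2 of 29 upstream, 7 of 37 target, 3 of 33 ligase and 2 of 20 atrophy input genes. They also called 2 of 21 substrate and 1 of 22 mitophagy genes, where 2.08% of all genes were called. DESeq2 called 2 target, 3 ligase, 2 input and 1 substrate gene, where it called 1.65% of all genes. From limma on log2(FPKM + 0.5) came 1 input gene, with 4 of all 12095 genes called. From edgeR with no filter came 1 input gene, with 12 of all 25846 genes called. Leaving out 1 library gave 0 to 4 target and 0 to 2 input genes, where 0 to 129 of all genes were called. Each member held 396 counts or more in every library, and the number of hearts, 3 a group, limits the precision.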
